A study of Homo sapiens with 22 samples.

Results

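MDA-MB-231 cells labelled as given 0.5 µM I-BET151 for 3 days were compared by RNA-seq, gene by gene, with MDA-MB-231 cells labelled as given DMSO for 3 days. MDA-MB-231 is an established human breast cancer cell line of the basal, triple-negative kind. The genes described are all those listed at 1 FPKM or more in at least 2 of the 8 libraries of the deposited table that holds this comparison, which is 14936 of its 60669 genes. FPKM is the number of sequenced fragments scaled to the length of the gene and to the total of the library. The comparison rests on 4 of the 22 libraries of the series, 2 labelled I-BET151 and 2 labelled DMSO. The same table holds 2 libraries labelled Molib and 2 labelled JQ1, each at 0.5 µM for 3 days. All 8 libraries entered one fit, so the spread of the Molib and JQ1 libraries also enters the standard errors and p-values. The genotype of all 4 groups is labelled WT, and all cells grew in DMEM with 10% FBS. The series title sets BET inhibition beside the m6A writer complex. Whether the 2 libraries of a group stem from separate cultures is not in the labels. A p-value here thus reflects the spread within the groups of these 8 libraries alone, which may be technical.

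BET proteins, among them BRD2 and BRD3, carry paired bromodomains that bind acetylated lysines on histones. They help to bring the elongation kinase P-TEFb to genes, and BET inhibitors occupy the bromodomains and displace these proteins from chromatin. I-BET151 is an isoxazole-containing quinoline compound and JQ1 a thienotriazolodiazepine, and both are BET inhibitors. A rise of HEXIM1, which encodes an inhibitor of P-TEFb, and of histone genes and SERPINI1 is a widely used sign that BET proteins have been inhibited. Growth, cytokine and interferon genes are commonly reported to fall.

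The 4 libraries were alike in scale. The FPKM of a library summed to 469180 and 449980 in the libraries labelled I-BET151, against 448072 and 457281 in DMSO. Fragment totals were not among the deposited values, and taking the commonest smallest FPKM step as 1 fragment gives 15.5 to 19.5 M (1e6) fragments for the 4 libraries, a rough guide only. Transcripts of the mitochondrial genome took 6.19% and 8.39% of the FPKM in the libraries labelled I-BET151, against 5.69% and 5.50% in DMSO. Across the genes tested, the correlation of log2(FPKM + 1) was 0.977 between the libraries labelled I-BET151 and 0.987 between the DMSO libraries. It was 0.944 to 0.952 between a library labelled I-BET151 and one of DMSO, and 0.910 to 0.917 between a library labelled I-BET151 and one of Molib or JQ1. Genes are not independent replicates, so these correlations only describe the libraries. Of the 15 markers of MDA-MB-231 examined, all were above 1 FPKM in at least 1 of the 4 libraries, and their levels summed to 3928 and 3863 FPKM in the libraries labelled I-BET151, against 4410 and 4566 in DMSO. Member by member, 8 were higher and 4 lower (median log2 fold change 0.29), or 3 and 3 without DMSO replicate 1 and 4 and 3 without DMSO replicate 2. VIM, CAV1 and KRT19 are among these markers. Over all genes tested, 13.9% were higher and 14.1% lower.

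The libraries labelled I-BET151 showed only some of the transcript changes named above. HEXIM1 and SERPINI1 were not raised over DMSO, as they were in the Molib and JQ1 libraries of the same table, whereas several histone genes rose under all 3 labels. HEXIM1 (ENSG00000186834, hg38 chromosome 17, 45148502 to 45152101, plus strand) was at 10.3 and 6.37 FPKM in the libraries labelled I-BET151, 72.9 and 69.6 in Molib, 73.8 and 76.7 in JQ1, and 26.5 and 29.4 in DMSO. It thus fell 3.35-fold under the I-BET151 label (log2 fold change -1.66, SE 0.19, adjusted p = 0.0011). The direct difference from JQ1 was -3.06 on the log2 scale (95% interval -3.50 to -2.62) and that from Molib -2.98 (-3.42 to -2.55). Because of this, the group is called by its label here, and no change is ascribed to the compound. A log2 fold change is the difference in mean log2(FPKM + 1) and understates changes of genes at low level, whereas folds are ratios of mean FPKM. Adjusted p-values were computed with limma (Benjamini-Hochberg, over all 14936 genes), and a gene passed under 0.05.

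SERPINI1, which encodes the serine protease inhibitor neuroserpin, was at 1.68 and 2.33 FPKM in the libraries labelled I-BET151, 23.7 and 21.2 in Molib, 20.7 and 22.2 in JQ1, and 2.35 and 2.88 in DMSO. It did not pass between I-BET151 and DMSO (log2 fold change -0.27, SE 0.15, adjusted p = 0.21). BRD2 (ENSG00000204256, chromosome 6, 32968660 to 32981505, plus strand), itself a BET protein, was at 61.3 and 62.6 FPKM under the I-BET151 label, 175 and 179 in Molib, 224 and 215 in JQ1, and 64.9 and 64.6 in DMSO. Here too the libraries labelled I-BET151 lay beside DMSO (log2 fold change -0.06, SE 0.08, adjusted p = 0.61) and well below the Molib and JQ1 libraries, with a log2 difference from JQ1 of -1.81 (adjusted p = 1.4e-05). BRD3, named after its values were seen, was at 12.8 and 12.6 FPKM under the I-BET151 label, against 12.8 and 12.9 in DMSO.

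**Figure D1:**
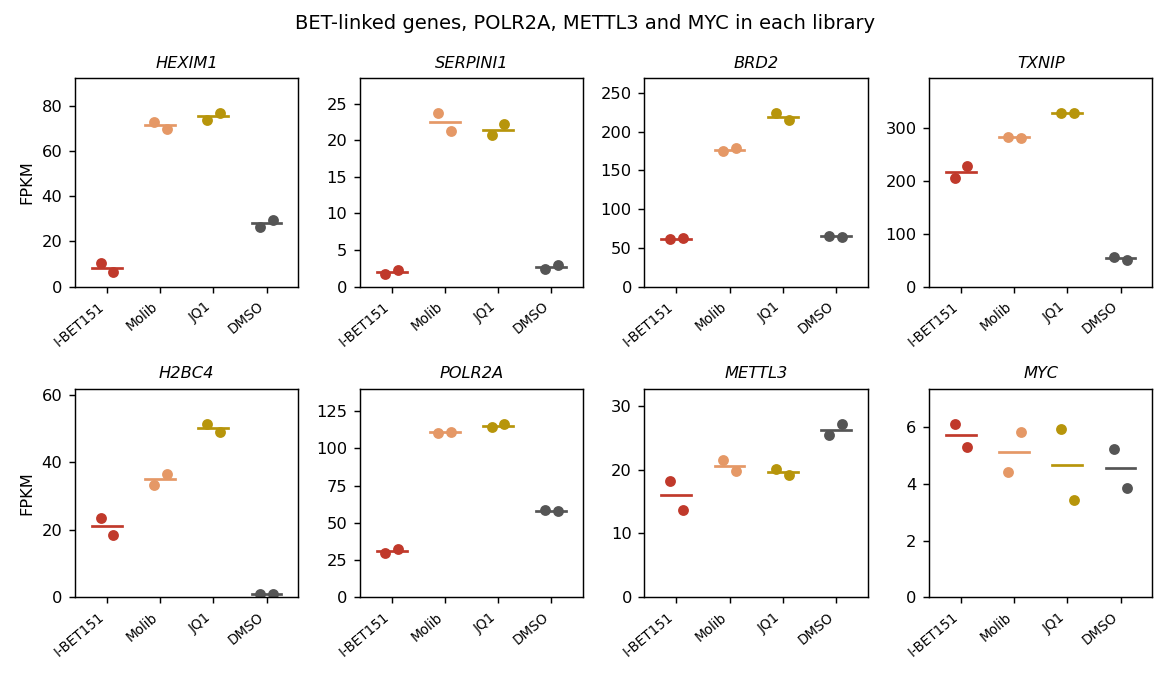
FPKM (linear axes from 0) of 8 genes in each library of the table; points are libraries, and bars are means of 2 libraries. HEXIM1, SERPINI1 and BRD2 are high in Molib and JQ1 but not in the libraries labelled I-BET151, POLR2A is at 29.6 and 32.4 there, and TXNIP and H2BC4 are above DMSO in the other 3 groups.

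Other response markers divided. The list of 16 genes reported to rise with BET inhibition had 5 members higher and 1 lower than in DMSO under the I-BET151 label (median log2 fold change 0.06), where 13.9% of all genes tested were higher and 14.1% lower, with a median of -0.0021. TXNIP, which encodes an inhibitor of thioredoxin, was at 206 and 228 FPKM under the I-BET151 label, against 56.5 and 50.0 in DMSO, 4.07-fold higher (log2 fold change 2.01, SE 0.10, adjusted p = 4.6e-05). The other 4 that rose encode histones. Set directly against JQ1, 14 of the 16 were lower and none higher under the I-BET151 label (all genes 20.1% lower, 24.6% higher), and against Molib 12 were lower and none higher (19.9% and 23.6%). The list of genes reported to fall held 15 tested members of 17, of which 7 were higher and 2 lower than in DMSO (median 0.28). IL7R, a cytokine receptor chain, was at 9.75 and 10.9 FPKM under the I-BET151 label, against 1.01 and 1.41 in DMSO, while Molib and JQ1 libraries held 0.0281 to 0.160. CXCL8 and AURKB, also on this list, are described with their groups. Of the 15, 12 were higher and none lower under the I-BET151 label than in JQ1, and the same counts held against Molib.

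Between the libraries labelled I-BET151 and DMSO, 4181 genes differed, 28% of those tested, with 2069 higher and 2112 lower. Of these, 889 also differed at least 2-fold on the fitted scale (5.95% of the genes tested), 417 of them higher (2.79%) and 472 lower (3.16%), and fitted log2 fold changes ran between -3.42 and 4.36. Fitted to the I-BET151 and DMSO groups alone, without Molib and JQ1, the count of 4181 became 2310. The count also depended on the DMSO libraries. Without DMSO replicate 1 it was 2054, and without DMSO replicate 2 it was 2004. Among protein-coding genes 1872 of 12309 were higher and 1838 lower. Of 241 processed pseudogenes 12 were higher and 44 lower, with a median log2 fold change of -0.22, and of 73 snoRNA genes 1 was higher and 10 lower.

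**Figure D2:**
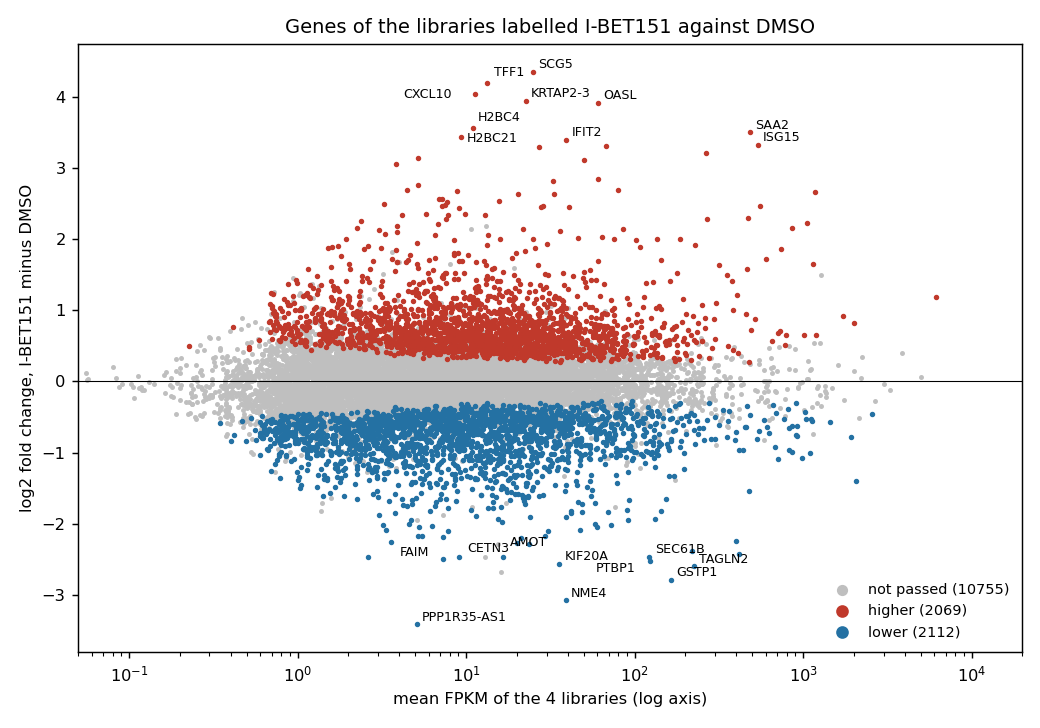
Fitted log2 fold change of the 14936 genes (I-BET151 minus DMSO, vertical) against mean FPKM of the 4 libraries (horizontal, log axis). Red points passed as higher (2069), blue points as lower (2112), and grey points did not pass; the 10 highest rises, the 10 deepest falls are named.

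The highest rise was that of SCG5 (ENSG00000166922), which encodes the neuroendocrine chaperone 7B2, at 43.8 and 52.9 FPKM under the I-BET151 label, against 1.77 and 1.07 in DMSO (34.0-fold, log2 fold change 4.36, SE 0.23, adjusted p = 6.3e-05). It was followed by TFF1, a secreted trefoil peptide better known from estrogen-responsive breast cells, at 26.9 and 25.2 FPKM against 0.629 and 0.329 (54.3-fold). KRTAP2-3, a hair keratin-associated protein gene with near-identical copies that counting may split, was at 43.5 and 42.9 FPKM against 1.73 and 2.00 (23.2-fold). SAA2, which encodes an acute-phase apolipoprotein, was at 1190.5 and 591 FPKM under the I-BET151 label, against 61.5 and 86.6 in DMSO (12-fold). It shares most of its sequence with SAA1, so the division of reads between them is uncertain. SAA1, named after its values were seen, was at 2361 and 1137 against 311 and 391. The other rises among the top 10 were the interferon or chemokine genes CXCL10, OASL, IFIT2 and ISG15 and the histone genes H2BC4 and H2BC21, described below.

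The deepest fall was that of PPP1R35-AS1 (ENSG00000240211, chromosome 7, 100436204 to 100438504, plus strand), listed at 0 and 0.0819 FPKM under the I-BET151 label, against 10.9 and 9.41 in DMSO (log2 fold change -3.42, SE 0.15, adjusted p = 3.4e-05). It was as low in Molib (0 and 0) and in JQ1 (0.133 and 0). Since the use of strand in counting is not given in the sources used here, its reads cannot be told apart from those of the gene it overlaps. NME4, a mitochondrial nucleoside diphosphate kinase, was at 9.05 and 5.88 FPKM against 56.8 and 84.1 (9.44-fold lower). GSTP1, a glutathione transferase that is abundant in basal breast cells, was at 43.1 and 38.7 against 291 and 286 (7.05-fold lower). These 3 falls left no overlap between the groups, which was a condition for naming them.

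Several of the other deep falls were of abundant transcripts. TAGLN2, an actin-binding protein of the transgelin family, was at 68.9 and 57.4 FPKM under the I-BET151 label, against 381 and 393 in DMSO (6.13-fold lower). PTBP1, the polypyrimidine tract-binding repressor of splicing, was at 36.6 and 35.2 against 211 and 212 (5.88-fold lower). SEC61B, a subunit of the translocon of the endoplasmic reticulum, was at 41.1 and 32.8 against 193 and 223 (5.62-fold lower). For PTBP1 and SEC61B the libraries labelled I-BET151 were also lower than JQ1, with log2 differences of -1.98 and -2.34. FAIM, an inhibitor of Fas-mediated death, was 8.79-fold lower than in DMSO (1.16 and 1.82 against 15.2 and 11). CETN3, a centrin of the centrosome, was 7.84-fold lower (2.07 and 2.01 against 18.3 and 13.7), and AMOT, an angiomotin that binds YAP, was 6.46-fold lower (3.43 and 5.43 against 27.4 and 29.8). The cell division motor KIF20A completes the 10.

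**Figure D3:**
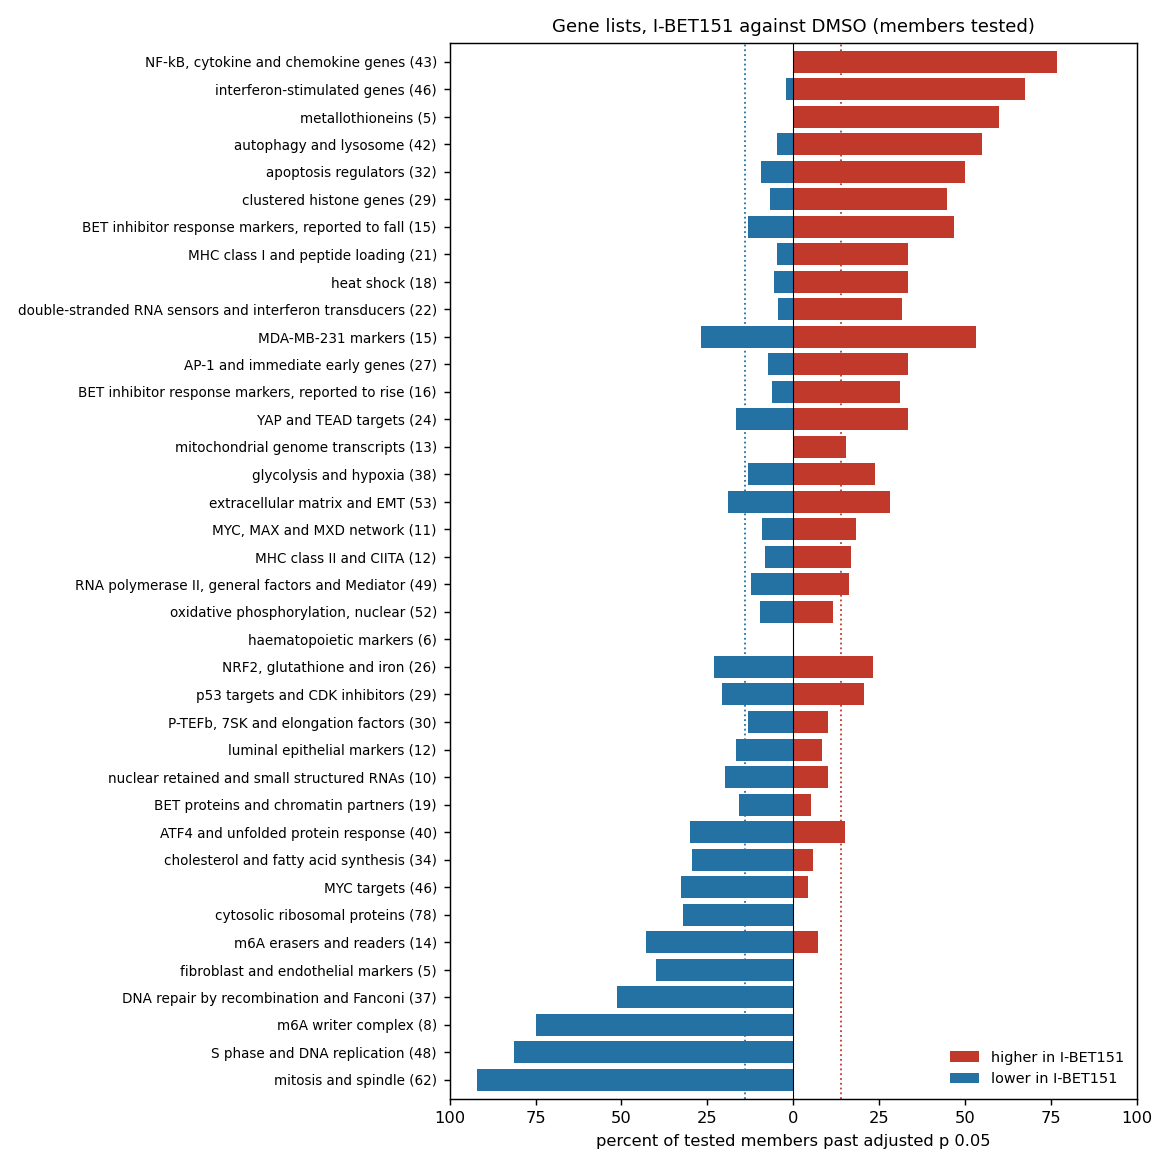
Percent of tested members of each gene list past an adjusted p of 0.05, higher (red, right) or lower (blue, left) under the I-BET151 label than in DMSO, with the number of members tested in brackets. Dotted lines mark the shares over all genes, 13.9% higher and 14.1% lower; cytokine and interferon lists are at the top and cell division lists at the bottom.

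Most of the interferon-stimulated genes tested rose. Interferons signal through JAK kinases to STAT factors, which with IRF9 bind the interferon-stimulated response element, a repeat of GAAA, in the promoters of antiviral genes. Of 46 members tested of 50 listed, 31 were higher and 1 lower under the I-BET151 label (median log2 fold change 0.82). The shares were 67.4% and 2.17%, against 13.9% and 14.1% of all genes. Without DMSO replicate 1 the counts were 23 and 0, and without DMSO replicate 2 they were 22 and 1. The promoters of ISG15 and IFIT3 are shown because they carry the core of that element, searched as 2 copies of GAAA with any 2 bases between them on either strand, in a window of 300 bases, 250 before and 50 after the start of the gene. The sequences are from RefSeq on GRCh38.p14, and capitals mark the matches, of which the ISG15 pair overlap. ISG15 lies at chr1:1013247-1013546 and IFIT3 at chr10:89327747-89328046, both on the plus strand.
ISG15: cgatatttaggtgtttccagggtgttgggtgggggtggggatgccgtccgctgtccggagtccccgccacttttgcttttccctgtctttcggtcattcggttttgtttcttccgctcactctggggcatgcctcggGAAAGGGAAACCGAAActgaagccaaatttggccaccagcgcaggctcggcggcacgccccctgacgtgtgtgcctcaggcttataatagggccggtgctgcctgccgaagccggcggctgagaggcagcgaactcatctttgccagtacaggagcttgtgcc
IFIT3: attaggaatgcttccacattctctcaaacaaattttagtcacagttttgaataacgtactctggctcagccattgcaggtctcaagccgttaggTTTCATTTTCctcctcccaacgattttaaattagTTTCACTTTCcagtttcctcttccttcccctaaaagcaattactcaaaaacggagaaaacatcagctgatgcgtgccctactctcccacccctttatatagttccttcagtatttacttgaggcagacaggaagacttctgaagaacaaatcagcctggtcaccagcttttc
Of the 37 tested members with a promoter in that collection, 26 held the element (70.3%), against 996 of all 27305 promoters (3.65%). Over the promoters of all tested genes it was in 290 of 10590 (2.74%). A match is a run of letters, and binding was not measured.

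ISG15 (ENSG00000187608), a ubiquitin-like protein attached to targets in the antiviral response, was at 1076 and 882 FPKM under the I-BET151 label, against 96.7 and 95.7 in DMSO. This was a 10.2-fold difference (log2 fold change 3.33, SE 0.14, adjusted p = 3.0e-05). OASL (ENSG00000135114), an oligoadenylate synthetase-like protein that supports RNA sensing by RIG-I, was at 121 and 108 against 6.62 and 6.62 (17.3-fold, log2 fold change 3.92, SE 0.12, adjusted p = 1.6e-05). IFIT2, which binds viral RNA and limits its translation, was at 71.2 and 73.4 against 5.37 and 6.55 (12.1-fold). IFIT3, its partner, was at 112 and 136 FPKM against 12.3 and 10.9 (10.7-fold). In all 4 genes the Molib and JQ1 libraries lay far below those labelled I-BET151. OASL, for example, was at 1.89 and 1.44 FPKM in Molib and 1.37 and 1.45 in JQ1, a direct difference of 5.44 and 5.58 on the log2 scale.

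Some sensors of viral RNA and some MHC class I genes rose too. Of all genes tested, 13.9% were higher and 14.1% lower. Of 22 sensors of double-stranded RNA and interferon transducers tested, of 29 listed, 7 were higher and 1 lower (median 0.35). IFIH1, which encodes the RNA sensor MDA5, was at 11.6 and 15.4 FPKM under the I-BET151 label, against 1.57 and 1.57 in DMSO (8.56-fold). DDX58, which encodes RIG-I, was 3.98-fold higher (33.4 and 48.2 against 10.4 and 10.1). DHX58, the third receptor of that family, was 2.89-fold and the adaptor gene TICAM1 2.52-fold higher. Most members of the list did not pass. Of 21 genes of MHC class I and peptide loading, 7 were higher and 1 lower (median 0.27), with the peptide transporter TAP1 at 66.1 and 61.1 FPKM against 27.3 and 26.8 (2.35-fold). HLA-B was at 693 and 643 against 345 and 382 (1.84-fold), although reads of near-identical class I genes can be assigned to one another. PSME1, a proteasome activator subunit, was 1.61-fold higher. Of 12 class II genes 2 were higher and 1 lower (16.7% and 8.33%, near the shares of all genes, median -0.13). HLA-DRA was at 197 and 216 FPKM against 136 and 135 (1.53-fold), and CTSS, a protease that trims the invariant chain, at 12.6 and 13.1 against 8.29 and 7.09. The calls of CTSS (adjusted p = 0.0587 without DMSO replicate 2) and of HLA-DOA, which fell, were lost when 1 library was left out.

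NF-kB targets, cytokines and chemokines gave the largest share of rises among the lists, where 13.9% of all genes tested were higher. NF-kB is a transcription factor that is held in the cytoplasm until a cytokine or microbial signal frees it, and it then switches on inflammatory genes. Of 43 members tested of 45 listed, 33 were higher and none lower (76.7%, median log2 fold change 0.95), and 29 and 26 were higher without DMSO replicate 1 and without DMSO replicate 2. The promoter of CXCL8 is shown because it carries, in capitals, the element GGAANTTCC, searched on either strand and chosen after the values were seen. It lies at chr4:73740319-73740618 on the plus strand of GRCh38.p14 (RefSeq).
CXCL8: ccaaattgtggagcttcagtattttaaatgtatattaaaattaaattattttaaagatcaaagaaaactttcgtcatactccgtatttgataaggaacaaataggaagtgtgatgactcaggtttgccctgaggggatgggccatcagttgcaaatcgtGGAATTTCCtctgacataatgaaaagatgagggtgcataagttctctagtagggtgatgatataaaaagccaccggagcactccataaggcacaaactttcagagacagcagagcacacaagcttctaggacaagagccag
The element was in 11 of 33 promoters of the tested members (33.3%), against 264 of all 27305 (0.967%). Over the promoters of all tested genes it was in 116 of 10590 (1.1%). Among the list members that passed it was in 7 of 25 (28%).

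CXCL8, the neutrophil chemokine interleukin 8, was at 858 and 995 FPKM under the I-BET151 label, against 275 and 283 in DMSO (3.32-fold, log2 fold change 1.72, SE 0.10, adjusted p = 8.1e-05). CSF2, which encodes GM-CSF, was at 321 and 279 against 71.3 and 76.4 (4.06-fold, adjusted p = 7.0e-05). ICAM1, the leukocyte adhesion molecule, was at 386 and 340.1 against 97.4 and 93.1 (3.81-fold, adjusted p = 5.2e-05). These genes were named for the smallest adjusted p of the list. CXCL11 was at 13.7 and 13.7 FPKM against 1.84 and 1.95 (7.20-fold). CXCL10, like CXCL11 a chemokine that draws T cells, was at 17.9 and 26.5 against 0.0527 and 0.827 (50.5-fold, log2 fold change 4.04, SE 0.28, adjusted p = 2.0e-04). CXCL10 was listed at 0 in all 4 Molib and JQ1 libraries. IL6 and IL1B, named after their values were seen, were 3.05-fold and 2.71-fold higher under the I-BET151 label than in DMSO.

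The cytokine genes differed widely between the libraries labelled I-BET151 and those labelled Molib or JQ1. CSF2 was at 1.46 and 1.46 FPKM in Molib and 1.05 and 1.13 in JQ1, so that the libraries labelled I-BET151 exceeded JQ1 by 7.17 on the log2 scale (95% interval 6.92 to 7.42) and Molib by 6.93 (6.68 to 7.19). CSF3, which encodes G-CSF, was at 162 and 143 FPKM under the I-BET151 label, 1.89 and 1.5 in Molib, 1.03 and 1.08 in JQ1, and 127 and 120.0 in DMSO. Its direct differences were 5.83 against Molib and 6.22 against JQ1, while that from DMSO did not pass (0.30, SE 0.12, adjusted p = 0.095). CXCL8 was at 24.0 and 23.8 in Molib and 26.2 and 25.5 in JQ1. Of the 43 list members, 38 were higher and none lower under the I-BET151 label than in JQ1, and 37 and none against Molib. Over all genes, 24.6% were higher and 20.1% lower than in JQ1, and 23.6% and 19.9% against Molib.

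**Figure D4:**
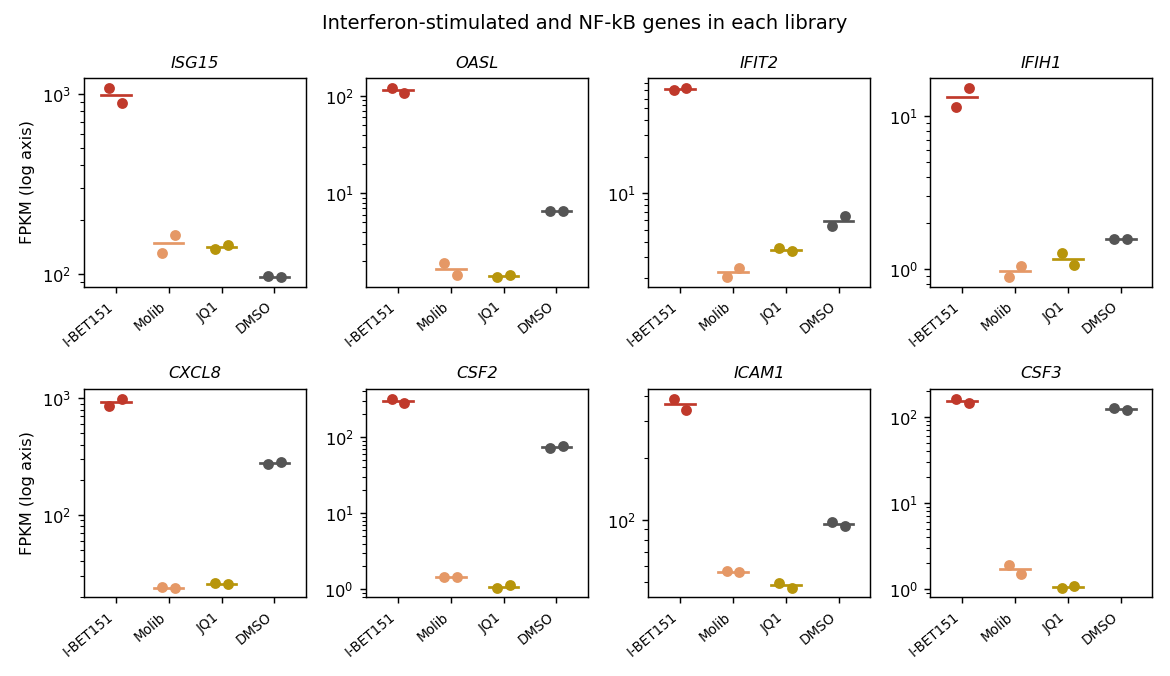
FPKM (log axes) of 4 interferon-stimulated or RNA-sensing genes (top) and 4 cytokine or NF-kB genes (bottom) in each library; points are libraries, and bars are means of 2 libraries. The libraries labelled I-BET151 are the highest in every panel, and Molib and JQ1 lie below DMSO for OASL, IFIT2, IFIH1, CXCL8, CSF2, ICAM1 and CSF3.

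The genes of cell division fell, where 14.1% of all genes tested were lower. Of 62 mitosis and spindle genes, all tested, 57 were lower and none higher (91.9%, median log2 fold change -1.08), and 49 and 50 were lower without DMSO replicate 1 and without DMSO replicate 2. Many such genes carry near their start a short cell cycle element, often read as TTTGAA, that represses them outside the late cell cycle. The promoter of CDC20 is shown with this element in capitals, searched on either strand and chosen after the values were seen. It lies at chr1:43358731-43359030 on the plus strand of GRCh38.p14 (RefSeq).
CDC20: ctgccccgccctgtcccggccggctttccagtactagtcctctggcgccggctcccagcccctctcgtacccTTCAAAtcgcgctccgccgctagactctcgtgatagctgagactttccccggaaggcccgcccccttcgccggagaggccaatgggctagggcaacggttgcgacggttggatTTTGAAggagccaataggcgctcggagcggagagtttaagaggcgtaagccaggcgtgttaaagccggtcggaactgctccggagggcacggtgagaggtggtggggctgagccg
The letters occurred in 37 of 54 promoters of the list (68.5%), against 4212 of all 27305 (15.4%) and 1006 of 10590 of the tested genes (9.5%).

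CDC20, an activator of the anaphase-promoting complex, was at 59.7 and 50.0 FPKM under the I-BET151 label, against 209 and 212 in DMSO (3.84-fold lower, log2 fold change -1.93, SE 0.10, adjusted p = 7.0e-05). KIF20A, a kinesin of the cleavage furrow, was at 9.58 and 9.61 against 56.6 and 67.3 (6.46-fold lower, log2 fold change -2.57, SE 0.15). CDCA8, the borealin subunit of the chromosomal passenger complex, was at 11.2 and 10.8 against 51.0 and 50.1 (4.6-fold lower). MKI67, which encodes the proliferation antigen Ki-67, was at 6.03 and 5.55 against 25.5 and 24.5 (4.32-fold lower), and AURKB, the kinase of the same passenger complex, was 3.36-fold lower. MKI67 under the I-BET151 label differed from JQ1 by -0.17 on the log2 scale (95% interval -0.46 to 0.12) and from Molib by -0.21 (-0.50 to 0.08). Of the 62 genes, 16 were higher and 20 lower than in JQ1 (all genes 24.6% and 20.1%), and 16 and 13 against Molib (23.6% and 19.9%). RNA of bulk cultures cannot tell a smaller share of dividing cells from less RNA per cell.

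Genes of S phase fell as well, again beside 14.1% of all genes tested that were lower. Of 48 tested, 39 were lower and none higher (81.2%, median -0.63), a count that dropped to 24 without DMSO replicate 1 and 23 without DMSO replicate 2. TK1, which salvages thymidine for DNA synthesis, was at 56.5 and 55.4 FPKM under the I-BET151 label, against 104 and 117 in DMSO (1.98-fold lower, adjusted p = 0.00066). CLSPN, an activator of the checkpoint kinase CHK1, was at 4.99 and 4.89 against 14.8 and 12 (2.71-fold lower). POLE, the catalytic subunit of leading-strand polymerase, was 2.30-fold and MCM2, of the replicative helicase, 1.90-fold lower. These 4 genes were named for the smallest adjusted p of the list. Against JQ1, MCM2 was higher under the I-BET151 label (31.6 and 34.5 against 19 and 17.9). Over the list 24 genes were higher and 5 lower than in JQ1 (all genes 24.6% and 20.1%). Of 37 genes of DNA repair by recombination and the Fanconi pathway, 19 were lower and none higher than in DMSO (median -0.57), and 9 were lower without DMSO replicate 1 and 9 without DMSO replicate 2. RAD54L, a motor of strand exchange, was at 5.47 and 6.85 FPKM against 13.5 and 14 (2.24-fold lower). RBBP8, which starts resection of broken ends, FANCG and the exonuclease gene EXO1 were 1.95-fold, 2.01-fold and 2.35-fold lower.

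Histone genes rose in part. Clustered histone transcripts of dividing cells end without a poly(A) tail, so their level also depends on which RNA fraction was sequenced. Of 56 listed, 29 were tested, 13 were higher and 2 lower (44.8% and 6.9%, against 13.9% and 14.1% of all genes, median 0.42). Levels in Molib and JQ1 also counted toward which genes were tested, and the median was 0 over the 47 genes above 0 in 2 libraries, 0.16 with a pseudocount of 5 and 1.39 over the 18 genes at 5 FPKM. H2BC4 was at 23.5 and 18.5 FPKM under the I-BET151 label, against 0.863 and 0.851 in DMSO (24.5-fold, log2 fold change 3.56, SE 0.13, adjusted p = 2.0e-05). H2BC21 was at 16.7 and 19.1 against 0.480 and 1.03 (23.7-fold), and H2BC5 at 87.7 and 92.1 against 8.81 and 10.2 (9.48-fold). H2AC6 and H2AC18 were 7.86-fold and 6.09-fold higher. Levels of many were higher still in the Molib and JQ1 libraries, with H2BC5 at 184 and 193 FPKM in Molib and 234 and 226 in JQ1. Of the 29 genes none was higher and 22 were lower under the I-BET151 label than in JQ1 (all genes 24.6% and 20.1%). Against Molib 20 were lower (all genes 19.9%). Reads of near-identical histone genes are uncertain. Nuclear and small structured RNAs, which shift with the RNA fraction too, summed to 464 and 177 FPKM in the libraries labelled I-BET151, against 420 and 618 in DMSO, and their part in the histone result was not tested.

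The m6A writer complex, which the series title names, was lower under the I-BET151 label, where 14.1% of all genes tested were lower. METTL3 and METTL14 form its methyltransferase core, WTAP, VIRMA, ZC3H13 and CBLL1 the regulatory scaffold, and RBM15 and RBM15B bind RNA. Of the 8 genes, 6 were lower and none higher than in DMSO (median log2 fold change -0.94), and 6 were lower also without DMSO replicate 1. Without DMSO replicate 2 the count was again 6, with RBM15 in place of METTL3.

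METTL3 (ENSG00000165819), the catalytic subunit, was at 18.3 and 13.7 FPKM under the I-BET151 label, 21.5 and 19.7 in Molib, 20.1 and 19.2 in JQ1, and 25.4 and 27.2 in DMSO. It was 1.64-fold lower than in DMSO (log2 fold change -0.69, SE 0.14, adjusted p = 0.011), but not past the threshold without DMSO replicate 2 (adjusted p = 0.0701). METTL14, the RNA-binding partner, was at 4.0 and 2.99 FPKM against 11.6 and 9.59 in DMSO (3.03-fold lower, log2 fold change -1.37, SE 0.21, adjusted p = 0.0042). WTAP was at 19.6 and 21.5 against 30.7 and 32.8 (1.55-fold lower, log2 fold change -0.60, SE 0.10, adjusted p = 0.0061). All 3 were lower than in DMSO, METTL14 by the largest factor. Of the scaffold, VIRMA was at 5.26 and 6.31 FPKM against 19.1 and 14.3 (2.89-fold lower), and ZC3H13 at 4.92 and 5.00 against 12.6 and 12.6 (2.55-fold lower). RBM15B was at 4.97 and 4.56 against 14.3 and 13.3 (2.89-fold lower, adjusted p = 3.0e-04). The remaining members did not pass. CBLL1 was at 6.2 and 4.6 FPKM against 7.15 and 6.85, and RBM15 at 0.626 and 1.28 against 3.29 and 0.593.

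Set against JQ1 and Molib, RBM15B was lower under the I-BET151 label, with a log2 difference of -1.2 from JQ1 (95% interval -1.44 to -0.95) and -1.27 from Molib. VIRMA and ZC3H13 were lower in both contrasts too. METTL3 did not pass in either, with a difference of -0.29 from JQ1 (-0.62 to 0.04) and -0.36 from Molib (-0.69 to -0.03). Of 14 erasers and readers of m6A, 6 were lower and 1 higher than in DMSO (median -0.32), or 3 and 1 without DMSO replicate 2. Over all genes tested, 14.1% were lower and 13.9% higher. IGF2BP1, a reader that stabilizes its targets, was at 2.86 and 2.68 FPKM against 7.40 and 7.57 (2.70-fold lower). IGF2BP2 was 1.77-fold, PRRC2A 1.53-fold and HNRNPA2B1 1.65-fold lower, the last not past the threshold without DMSO replicate 2 (adjusted p = 0.0584).

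MYC did not pass, while 32.6% of its tested targets were lower and 4.35% higher, against 14.1% and 13.9% of all genes. MYC was at 6.13 and 5.33 FPKM under the I-BET151 label, 4.44 and 5.85 in Molib, 5.93 and 3.43 in JQ1, and 5.25 and 3.87 in DMSO, and it did not pass (log2 fold change 0.28, SE 0.24, adjusted p = 0.42). Of 46 MYC targets 15 were lower and 2 higher (median -0.21), with 8 lower without DMSO replicate 1 and 7 without DMSO replicate 2. NCL, the nucleolar protein nucleolin, was at 130.1 and 138 FPKM against 220.2 and 209.8 (1.60-fold lower). CAD, of pyrimidine synthesis, RANBP1 and the ribosome factor PES1 were 1.62-fold, 1.49-fold and 1.59-fold lower. In the MYC, MAX and MXD network 2 of 11 genes were higher and 1 lower (18.2% and 9.09%, near the shares of all genes). MXD3 fell (7.89 and 4.44 against 25.2 and 27.6) and MXD1 rose (4.62 and 5.06 against 2.32 and 2.17), both of which encode partners of MAX that compete with MYC.

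Of 30 genes of P-TEFb, the 7SK particle and elongation, 3 were higher and 4 lower (10% and 13.3%, no more than the 13.9% and 14.1% of all genes), or 1 and 3 without either DMSO replicate 1 or DMSO replicate 2. HEXIM1, MEPCE (13.8 and 13.3 FPKM against 26.4 and 28.4), which caps 7SK RNA, and MLLT1 fell, while the elongation factor gene ELL rose (20 and 28.1 against 11.7 and 11.4). The 7SK RNA itself, RN7SK, which holds P-TEFb inactive together with HEXIM1, was listed at 9.47 and 7.07 FPKM against 2.08 and 1.78 (4.29-fold higher, adjusted p = 7.8e-04). RN7SK is on the list of nuclear and small structured RNAs, whose levels shift with the RNA fraction sequenced. That list summed to 464 and 177 FPKM in the libraries labelled I-BET151, against 420 and 618 in DMSO. The part of the RNA fraction in the RN7SK difference was not tested. Of 19 BET proteins and chromatin partners 1 was higher and 3 lower, and the calls of ATAD5 (adjusted p = 0.0741), NSD3 (0.104) and KAT2B (0.174) were lost without DMSO replicate 1. POLR2A, the largest subunit of RNA polymerase II, was at 29.6 and 32.4 FPKM under the I-BET151 label, 111 and 111 in Molib, 114 and 117 in JQ1, and 58.6 and 57.8 in DMSO. It fell 1.88-fold relative to DMSO (adjusted p = 7.2e-04). Of the 49 genes of the polymerase, general factors and Mediator, 8 were higher and 6 lower (16.3% and 12.2%, near the 13.9% and 14.1% of all genes), counts that dropped to 1 and 1 without DMSO replicate 1 and to 2 and 1 without DMSO replicate 2.

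Matrix, YAP target and immediate early genes included some of the most abundant transcripts that rose. Of 53 genes of extracellular matrix and EMT tested, 15 were higher and 10 lower (28.3% and 18.9%, against 13.9% and 14.1% of all genes, median 0.02). MMP1, interstitial collagenase, was at 1995 and 2085 FPKM under the I-BET151 label, against 327 and 313 in DMSO (6.38-fold, log2 fold change 2.67, SE 0.08, adjusted p = 1.6e-05). TIMP1, an inhibitor of metalloproteinases, was at 1547 and 1268 against 309 and 318 (4.49-fold). COL13A1, a transmembrane collagen, fell (25.5 and 20 against 92.1 and 95.9). VIM, the mesenchymal filament vimentin, was at 650.5 and 818 FPKM against 1458 and 1462 (1.99-fold lower). The list thus held calls in both directions, as did all genes tested. A secreted protease and an inhibitor of such proteases were among its genes with the smallest p.

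Of 24 YAP and TEAD targets 8 were higher and 4 lower (33.3% and 16.7%, against 13.9% and 14.1% of all genes, median 0.27). Without DMSO replicate 1 the counts were 6 and 1, without DMSO replicate 2 they were 5 and 0, and without I-BET151 replicate 1 they were 8 and 2. ANKRD1 was at 451 and 507 FPKM under the I-BET151 label, against 50.0 and 51.4 in DMSO (9.44-fold, log2 fold change 3.21, SE 0.09, adjusted p = 1.6e-05). CCN1, a secreted matricellular protein, was at 731 and 655 against 230.5 and 231 (3.00-fold), and F3, which encodes tissue factor, was 2.16-fold higher. ANKRD1 and CCN1 were also higher in Molib and JQ1 than in DMSO, ANKRD1 at 164 and 174 FPKM in Molib and 143 and 142 in JQ1. Of 27 AP-1 and immediate early genes 9 were higher and 2 lower (33.3% and 7.41%, beside the same shares of all genes, median 0.37). EGR1 was at 22.7 and 21.9 against 3.68 and 3.54 (6.18-fold), IER3, a stress-inducible survival gene, at 1699.7 and 1795 against 553 and 557 (3.15-fold), and DUSP5, a phosphatase of ERK, was 2.73-fold higher. KLF2 fell (4.31 and 3.80 against 13.9 and 13.4).

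Apoptosis, autophagy and lysosome genes included many rises. The shares over all genes tested were 13.9% higher and 14.1% lower. Of 32 apoptosis regulators 16 were higher and 3 lower (median 0.61), or 10 and 2 without DMSO replicate 2. TNFSF10, which encodes the death ligand TRAIL, was at 13.4 and 13.5 FPKM under the I-BET151 label, against 3.84 and 4.84 in DMSO (3.11-fold). TNFRSF10D, a decoy receptor for TRAIL, was at 10.3 and 9.45 against 27.7 and 28.7 (2.85-fold lower). BMF, a pro-death BH3-only protein, was 4.84-fold higher (6.49 and 6.48 against 1.53 and 1.15), and BIRC3, an inhibitor of apoptosis induced by NF-kB, 2.39-fold higher. The ligand rose where its decoy receptor fell. Of 42 autophagy and lysosome genes 23 were higher and 2 lower (median 0.50), but 9 were higher without DMSO replicate 1 and 13 without DMSO replicate 2. PSAP, the precursor of saposins, was at 530.5 and 601 FPKM against 244 and 239 (2.34-fold), and the autophagy receptor gene SQSTM1 at 437 and 398 against 204 and 182 (2.16-fold).

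Metallothionein genes, which encode zinc-binding proteins, rose in 3 of the 5 tested. Beside these and the heat shock genes, 13.9% of all genes tested were higher and 14.1% lower. MT2A was the most abundant gene of both libraries labelled I-BET151, at 7864 and 9220.4 FPKM, against 3726 and 3732 in DMSO (2.29-fold). MT1X was at 750.3 and 813 against 162 and 154 (4.96-fold), with reads that may be shared among similar copies. MT2A was not called between the libraries labelled I-BET151 and those of JQ1, and its difference from JQ1 was -0.03 on the log2 scale (95% interval -0.27 to 0.21). Of 18 heat shock genes 6 were higher and 1 lower, HSPA1A and its near-identical copy HSPA1B by 2.68-fold and 2.26-fold, and 10 were higher without I-BET151 replicate 1.

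Ribosomal and mitochondrial transcripts depended on single libraries. The shares over all genes tested were 13.9% higher and 14.1% lower. Of 78 cytosolic ribosomal protein genes 25 were lower and none higher (median -0.33). Without I-BET151 replicate 1 the counts were 49 lower and 1 higher, without DMSO replicate 1 they were 13 and 0, and without DMSO replicate 2 they were 7 and 0. RPS14 was at 282 and 280.3 FPKM under the I-BET151 label, against 571 and 529 in DMSO (1.96-fold lower), and RPL7A and RPS6 were 1.96-fold and 2.13-fold lower. Of the 13 transcripts of the mitochondrial genome 2 were higher, 11 without I-BET151 replicate 1 and none without either DMSO library. MT-ND1 was at 821 and 1126 FPKM against 627 and 599, and the libraries labelled I-BET151 differed from each other more than the DMSO libraries did.

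Markers of other cell types were present in part. Of 20 luminal epithelial markers 8 were under 1 FPKM in all 4 libraries, among them ESR1, PGR, FOXA1 and CDH1, and the list summed to 285 and 275 FPKM under the I-BET151 label, against 325 and 376 in DMSO. Of the 12 luminal members tested, 1 was higher and 2 lower (8.33% and 16.7%, against 13.9% and 14.1% of all genes). TFF1 rose, while CLDN7 (log2 fold change -0.97) and KRT7 (-0.62) fell. The call of KRT7 was lost when either DMSO library was left out. Of 16 haematopoietic markers CD3E, CD2 and MS4A1 were listed at 0 and 10 were under 1 FPKM, PTPRC included, while the list summed to 82.2 and 72.8 against 59.8 and 68.1. Fibroblast and endothelial markers summed to 6.74 and 7.91 against 10.7 and 14, with 10 of 15 under 1 FPKM.

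The direct contrasts at the same dose and time asked where the libraries labelled I-BET151 differed from those labelled JQ1 or Molib. Against JQ1, 6663 genes passed (44.6%), 3668 higher and 2995 lower, and against Molib 6504 passed (43.5%), 3532 higher and 2972 lower. Between Molib and JQ1, limma called 0 genes (0%), with 1227 at an unadjusted p under 0.05. The number of genes lower than in JQ1 was 1967 without JQ1 library a. The difference in number between contrasts was not itself tested.

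The genes highest over Molib and JQ1 were CSF2, CSF3, OASL and, against JQ1, KRTAP2-3 and, against Molib, SCG5. SCG5 was at 43.8 and 52.9 FPKM under the I-BET151 label, 0 and 0.129 in Molib, and 0.649 and 0.126 in JQ1. KRTAP2-3 was at 43.5 and 42.9 FPKM under the I-BET151 label, 0.667 and 0.325 in Molib, and 0.138 and 0.235 in JQ1. Both were near the bottom of the measured range in those 4 libraries. The genes furthest below were TUBB3, PEG10, U47924.2, HEXIM1 and AL133346.1. TUBB3, the neuronal class of beta-tubulin, was at 11.8 and 13 FPKM under the I-BET151 label, 192 and 244 in Molib, 196 and 252 in JQ1, and 19.1 and 33.8 in DMSO. PEG10, a gene derived from a retrotransposon, was at 2.08 and 2.24 FPKM under the I-BET151 label, 27.6 and 40.1 in Molib, 33.6 and 32.9 in JQ1, and 2.38 and 3.41 in DMSO. For PEG10 the libraries labelled I-BET151 were not called against DMSO (adjusted p = 0.30), as with SERPINI1 and BRD2, so the high level belonged to Molib and JQ1. POLR2A, FTL and KRT19 were also high in Molib and JQ1, but they were called between the I-BET151 label and DMSO as well. Their log2 fold changes from DMSO were -0.89, -1.08 and 0.59. FTL, the ferritin light chain, was at 644 and 614 FPKM under the I-BET151 label, 3326 and 3249 in Molib, 3286 and 3260.3 in JQ1, and 1332 and 1326 in DMSO.

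**Figure D5:**
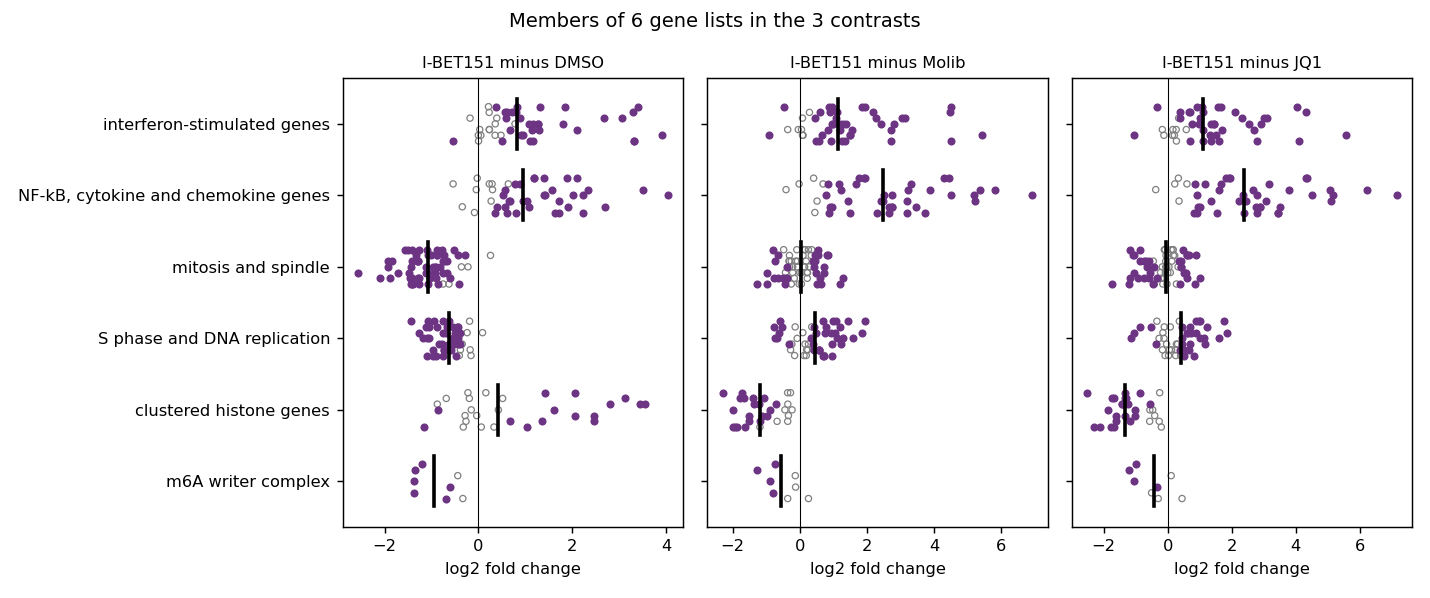
Fitted log2 fold change (horizontal) of each tested member of 6 gene lists when the libraries labelled I-BET151 are set against DMSO, Molib or JQ1. Filled points passed an adjusted p of 0.05, open points did not, and bars are medians; cytokine genes are higher in all 3 contrasts, cell division genes are low against DMSO with medians of -0.06 against JQ1 and 0.05 against Molib, and histone genes have medians of -1.34 and -1.19 there.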

How the data were processed

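RNA was extracted with Trizol, per the labels' protocols. Those protocols give 2 ways of making libraries and do not tie either to a sample. The submitters' processing notes name HISAT2 2.1.0, Cufflinks 2.2.1 and CASAVA 1.4 and the hg38 build. The sources used here do not say what each tool did, with which annotation, or whether counting used strand. One table was used, and it holds FPKM as deposited by the authors, a unit inferred from its decimals and sums. Read depth is therefore unknown, and no interval that needs it is given.

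The design had tests for counts and for FPKM, and the FPKM test was used. A pseudocount of 1 was added before taking log2, and a gene was tested if 2 libraries or more reached 1 FPKM. One limma 3.58.1 fit (eBayes with trend, R 4.3.3) covered all 4 groups, and p-values were adjusted by Benjamini-Hochberg. The script was tested on simulated data. Summaries and figures used Python 3.11.15, pandas 2.3.3, numpy 2.4.6 and matplotlib 3.10.9. Only 1 of the 3 tables of the series was used, with 0 of its per-sample columns left out. Its JQ1 columns have names that also belong to JQ1 samples of another table, were assigned to the remaining JQ1 samples by elimination and carry no replicate number.

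The genes described and the 38 lists were chosen with earlier results of these data known. Named genes were METTL3, METTL14, WTAP, MYC, HEXIM1, BRD2, ISG15 and OASL, the 10 highest rises and 10 deepest falls (passed, groups not overlapping, mean of at least 5 FPKM), up to 4 members of each list with the smallest adjusted p, or the 2 with the highest mean where none passed, and the 4 highest and 4 lowest of each direct contrast. Some genes that these rules name are not reported here. SERPINI1 was read for the check of the label. PHB1 and RIGI were matched by their older symbols. Positions come from GENCODE for hg38 by gene ID.

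Alternatives were pseudocounts of 0.1 and 5, a filter at 5 FPKM or at any value above 0 in 2 libraries, TMM factors (trims of 30% and 5%), equal medians, the contrast's groups alone, a replicate block, a 2-fold limit and leaving out each library.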

Additional observations from a re-analysis of the deposited data

How the results depend on the processing

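For I-BET151 against DMSO, fitting those groups alone gave 2310 genes (1136 higher, 1174 lower), and requiring a 2-fold difference gave 889 (417 and 472). Leaving out 1 library gave between 2004 and 4450 genes, 964 to 2181 higher and 1040 to 2269 lower. Against JQ1 the 2-fold limit gave 2088 genes (1237 and 851) and against Molib 1999 (1176 and 823). Leaving out 1 library gave 1967 to 2938 genes lower than in JQ1. A group left with 1 library was assumed to vary like the others.

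The replicate numbers gave no sign of paired samples. Deviations of I-BET151 and DMSO libraries of the same number correlated at -0.123 across genes, I-BET151 with Molib at 0.042 and Molib with DMSO at -0.041. With 2 libraries a group, these values cannot settle whether samples were handled in pairs. With the replicate number as a block, the count against DMSO was 2697 (1315 higher, 1382 lower). With the DMSO numbers crossed, a choice made after seeing the data, it was 3272. Both fits also left out the JQ1 libraries, so the effect of the block alone is not shown. No paired analysis was possible for JQ1 because its columns carry no number tied to its samples.

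Of 159 named genes, TMM factors, equal medians and a pseudocount of 0.1 changed no direction and no call. Fitting the contrast's groups alone took the call from 13, METTL3 among them (limma, adjusted p = 0.0512). The replicate block took it from 7, and the filter at any value above 0 from 6. The sign turned for LAPTM5 (-0.018 to 0.26 over the fits that left out 1 library) and AL133346.1 (-0.45 to 0.36), neither of which had passed. The causes were not tested. Depth limits genes near 1 FPKM most.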

Other observations

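Between the libraries labelled I-BET151 and DMSO, 13.9% of all genes tested were higher and 14.1% lower, beside which the metabolic lists are given. Of 34 cholesterol and fatty acid synthesis genes 10 were lower and 2 higher (median log2 fold change -0.14), with 5 lower without DMSO replicate 1 and 6 without DMSO replicate 2. ACAT2, which makes acetoacetyl-CoA in the cytosol, was at 17.6 and 18.1 FPKM under the I-BET151 label, against 64.5 and 66.9 in DMSO (3.67-fold lower). SQLE, squalene epoxidase, was 3.92-fold lower, and SCD, stearoyl-CoA desaturase, 1.87-fold lower. Of 38 glycolysis and hypoxia genes 9 were higher and 5 lower (median -0.01). ANGPTL4, a secreted inhibitor of lipoprotein lipase, was at 35.4 and 36.1 FPKM against 4.89 and 4.92 (7.29-fold), and the glucose transporter gene SLC2A3 was 3.11-fold higher. Without DMSO replicate 1 the counts were 6 and 1, and without DMSO replicate 2 they were 7 and 2.

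Of 26 genes of NRF2, glutathione and iron 6 were higher and 6 lower (median 0.15), and 6 and 3 without either DMSO library. AKR1C1, an aldo-keto reductase, was at 11.4 and 14.8 FPKM under the I-BET151 label, against 1.26 and 1.49 in DMSO (9.54-fold), while NQO1, a quinone reductase also induced by NRF2, was at 27.9 and 28.2 against 47.7 and 48.3 (1.71-fold lower). Of 40 ATF4 and unfolded protein response genes 12 were lower and 6 higher (median -0.22), or 6 and 2 without either DMSO library. PSAT1, of serine synthesis, was 2.04-fold lower and the chaperone gene DNAJB9 2.31-fold higher. Of 29 p53 targets and CDK inhibitors 6 were higher and 6 lower (20.7% each way, against 13.9% and 14.1% of all genes, median 0.05). CDKN2C, an inhibitor of CDK4 and CDK6, was 3.41-fold lower (11.2 and 8.79 against 36.2 and 32.1), and PMAIP1, a pro-death gene, 1.82-fold higher. Without DMSO replicate 2 that list held 1 higher and 4 lower, and without DMSO replicate 1 it held 6 and 3. Of 52 nuclear genes of oxidative phosphorylation 6 were higher and 5 lower (11.5% and 9.62%, below the shares of all genes), or 6 and 18 without I-BET151 replicate 1 and 1 and 3 without either DMSO library.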
